A study of Homo sapiens with 12 samples.

Results

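The comparison described here was between the replicate 2 and replicate 1 cultures of TMD8, a human diffuse large B-cell lymphoma (DLBCL) line, over 4 of the 12 RNA-sequencing libraries of the study. The members were the ofatumumab and isotype libraries of each culture, so that 2 libraries stood on each side. These libraries were selected on their own counts, since the gene counts and the ribosomal protein share had already been seen to part by culture, so the differences between them are given as a description and without a test. The rituximab libraries of the same cultures, 1 on each side, did not enter the choice and serve as a check. The study treated TMD8 and U2932, another DLBCL line, for 4 h with 20 µg/mL of rituximab (R), ofatumumab (OF) or a human IgG1 isotype control. R and OF are monoclonal antibodies to CD20, a B-cell surface protein, and bind different epitopes of it. Each of the 6 conditions had 2 libraries, made from cells that had been split and grown apart for a week, and whether a number marks 1 culture shared by all 3 antibodies could not be settled from the files. No group carried a transgene or an edited allele, and each cell line is a single established line. A library held between 15440226 and 27110612 counts on 58884 genes, and 14227 genes passed the filter on low counts in TMD8.

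The 3 TMD8 libraries numbered replicate 2 did not share 1 composition. On the first principal component of the 6 TMD8 libraries, which held 42.6% of the variance, OF replicate 2 stood at 41.5 and isotype replicate 2 at 35.0. OF replicate 1 stood at -13.9, isotype replicate 1 at -27.1 and R replicate 1 at -24.9. The R replicate 2 library, which carries the same number as the pair at the far end, stood at -10.8, next to OF replicate 1 and on the side toward that pair. What follows therefore separated 2 of the 3 replicate 2 libraries from the remaining 4, and a difference between cultures cannot be told apart from a difference in how those 2 libraries were prepared.

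All 6 libraries had few counts on genes that mark U2932. For 95 such genes, the summed level was 2.04 CPM (counts scaled to the TMM-normalized library size) in OF replicate 1 and 2.51 in OF replicate 2. It was 1.92 and 2.21 in the isotype replicates and 0.75 and 0.41 in the R replicates, against 4602 to 4782 CPM in the U2932 libraries. How these genes were chosen is not stated here, and a choice made on these same counts would fix this contrast. All 10 B-cell markers were measured in each library and summed to 3218 to 4274 CPM. Of 12 markers of T and NK cells, 10 were under 1 CPM in every library, among them CD3D, CD3E and CD3G, and nearly all of the sum came from GZMB, which codes for granzyme B. GZMB was lower past the limit used below, at 275 and 143 CPM in OF replicates 1 and 2, 265 and 127 in the isotype replicates and 287 and 241 in the R replicates. Of 10 monocyte and macrophage markers, 9 were under 1 CPM in every library, MRC1 being the exception. Of 9 neutrophil and erythroid markers, all were under 1 CPM in every library. Of 13 markers of fibroblasts, endothelium and epithelium, 9 were under 1 CPM in every library, and the list summed to 19.4 and 30.7 CPM in OF, 20.1 and 33.5 in isotype and 20.6 and 21.6 in R. Among them COL1A1, a collagen chain, was at 1.45 and 4.89 CPM in OF, 1.26 and 4.91 in isotype and 1.06 and 3.13 in R, and CDH1, which codes for E-cadherin, at 14.3 and 22.2, 13.5 and 24.4, and 15.66 and 15.02. The part of these markers in the differences below was not tested. The antibodies' target, MS4A1, which codes for CD20, was at 1918 and 1415 CPM in OF replicates 1 and 2, at 1296 and 890 in the isotype replicates and at 2252 and 1948 in the R replicates. It was lower in replicate 2 in each pair, by 0.44, 0.54 and 0.21 on the log2 scale, and did not reach the 1.5-fold limit used below.

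The ribosome is built from ribosomal RNAs and a large set of small proteins, and the messages for these proteins are among the most abundant of a growing lymphoma cell. Most carry a run of pyrimidines at their start, the 5′ TOP element, through which the cell adjusts their translation as a group. The respiratory chain is encoded by both genomes, with the core subunits and the ribosomal RNAs of the mitochondrion transcribed from the mitochondrial chromosome and the remaining subunits in the nucleus. Chromatin regulators such as histone methyltransferases, acetyltransferases and remodelling ATPases are, by contrast, large multidomain proteins with long messages. Both the length of a message and its content of G and C are known to affect how its fragments pass through library preparation.

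MT-ATP8, a subunit of the mitochondrial ATP synthase, had the largest negative difference of all named genes, and its sequence is shown as annotated. The annotated gene overlaps MT-ATP6 (chrM:8527-9207), so its length is not taken as that of a message. G and C are in capitals. The sequence is read from GENCODE 29 transcripts on GRCh38 and lies on the plus strand at chrM:8366-8572 (207 bases, 39.6% GC).
MT-ATP8: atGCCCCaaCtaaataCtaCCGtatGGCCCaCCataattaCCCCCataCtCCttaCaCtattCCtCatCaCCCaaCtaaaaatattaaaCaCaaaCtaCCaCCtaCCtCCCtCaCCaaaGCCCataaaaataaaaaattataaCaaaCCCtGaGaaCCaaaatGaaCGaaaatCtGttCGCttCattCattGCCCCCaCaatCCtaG

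Ribosomal protein genes were the list with the most lower genes, and the starts of 5 of them are shown for the pyrimidine run they share in part. RPS29 and RPL39 had the largest negative differences of the group among the named genes, and RPL13A, RPLP0 and RPS6 were among its most abundant lower members. Each window holds the 10 bases before and 20 bases from the RefSeq start on GRCh38.p14, on the strand of the gene, with the longest run of C and T in capitals.
RPS29: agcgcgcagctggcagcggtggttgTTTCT
RPL39: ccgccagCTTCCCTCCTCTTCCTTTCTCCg
RPL13A: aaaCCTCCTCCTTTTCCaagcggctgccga
RPLP0: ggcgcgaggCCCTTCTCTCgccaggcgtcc
RPS6: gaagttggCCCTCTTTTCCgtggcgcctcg
The run spanned 22 bases in RPL39, 14 in RPL13A, 11 in RPS6 and 10 in RPLP0, while the RPS29 window held a run of 5 at its end. The letters CTTTC, sought as 1 form of such a run within 20 bases of the start on the strand of the gene, were in 35 of 63 ribosomal protein genes with an entry (55.6%) and in 6.96% of the 27305 genes matched. They did not single out the lower genes, being in 27 of the 53 that were lower and in 8 of the 10 others. On the opposite strand (GAAAG) the shares were 3.17% and 5.39%.

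Ribosomal protein and mitochondrial genes took a smaller share of the counts in OF and isotype replicate 2 than in the other 4 TMD8 libraries. Ribosomal protein genes took 11.7% of the counts in OF replicate 1 and 7.77% in OF replicate 2, and 11.8% and 7.04% in the isotype replicates. In the R pair the shares were 11.2% and 10.9%. The OF and isotype pairs thus differed by -3.95 and -4.73 percentage points (mean -4.34, SD 0.55, n = 2 pairs), and the replicate 2 libraries lay below the other 4 without overlap. Genes of the mitochondrial chromosome took 6.18% and 3.73% in the OF replicates, 5.81% and 3.99% in the isotype replicates and 6.23% and 5.70% in the R replicates. Here too the 2 lowest libraries were OF and isotype replicate 2. In U2932 the ribosomal protein share lay between 4.89% and 7.29%, and replicate 2 differed from replicate 1 by 0.146 percentage points in the OF pair, -0.345 in the isotype pair and 0.287 in the R pair. In bulk RNA, less RNA per cell and fewer cells of a kind cannot be told apart.

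**Figure D1:**
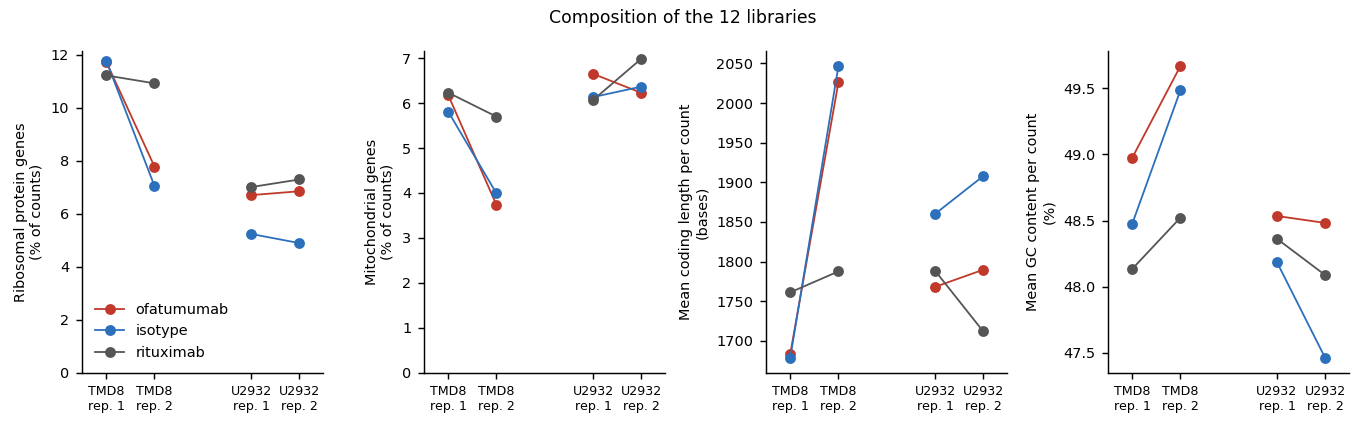
Share of counts on ribosomal protein genes and on mitochondrial genes (both axes from 0), mean coding length and mean GC content per count in the 12 libraries, with a line joining the 2 replicates of each antibody. OF and isotype replicate 2 of TMD8 lie lowest of the TMD8 libraries in the first 2 panels and highest in the other 2, at 2026 and 2047 bases against 1678 to 1788, and R replicate 2 lies with the replicate 1 libraries.

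Counts had moved toward longer and more GC-rich genes. Averaged over counts, the coding length was 1683 bases in OF replicate 1 and 2026 in OF replicate 2, 1678 and 2047 in the isotype replicates, and 1761 and 1788 in the R replicates. The mean GC content was 49.0% and 49.7%, 48.5% and 49.5%, and 48.1% and 48.5% in the same order. The coding length of OF and isotype replicate 2 lay apart from that of the other 4 TMD8 libraries and above all 6 of U2932, whose range was 1712 to 1908 bases. The replicate 2 libraries also gave a smaller share of counts to their 50 most abundant genes, 14.6% and 13.5%, against 18.4% to 19.9% in the other 4.

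Genes were counted as higher or lower when their log2 CPM differed by at least 1.5-fold in the same direction in both the OF and the isotype pair. By this rule 1298 genes were higher in replicate 2, which is 9.12% of those tested, and 787 were lower, which is 5.53%. The rule chose these genes, so nothing is read from their number alone. Scaling by library size alone, which put the median of all genes at 0.17 in the OF pair and 0.16 in the isotype pair, gave 2097 higher and 324 lower genes. Just inside the limit lay SLC35E2A on the higher side, at 1.5001-fold in its smaller pair, and NUDCD2 on the lower side, and just outside it L3MBTL1 at 1.4998-fold and COPS5 at 1.4991-fold. The same rule in U2932 gave 67 higher genes (0.458% of 14635) and 90 lower genes (0.615%). Among genes with a mean of at least 10 CPM, TMD8 had 619 higher genes of 8632 (7.17%) and 532 lower (6.16%), and U2932 had 0 of 8872 in either direction, a limit set after the values were seen.

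The OF and isotype pairs differed alike, gene by gene. Across the 14227 genes, Pearson's r between the 2 differences was 0.687, and Spearman's rho 0.730, where the pairs share no library but genes are not independent replicates. In U2932 the same r was -0.00070. The standard deviation of the differences was 0.54 in the OF pair and 0.57 in the isotype pair, against 0.36 in the R pair and 0.32 to 0.35 in the 3 pairs of U2932. Set against counting error, the chi-square of a replicate pair divided by its degrees of freedom was 59.1 in the OF pair, 109 in the isotype pair and 5.68 in the R pair.

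The R pair, which the choice did not use, moved the same way in most of these genes, with smaller medians. Of the 1298 higher genes, 990 (76.3%) were higher in R replicate 2 as well, where 47.3% of all genes tested were, and of the 787 lower genes 594 (75.5%) were lower, where 52.7% were. Their median difference in the R pair was 0.18 for the higher genes, beside 0.86 in the OF pair and 1.00 in the isotype pair, and -0.12 for the lower genes, beside -0.75 and -0.83. The genes were chosen for at least 1.5-fold in the OF and isotype pairs, so this gap is in part fixed by the choice. A difference of 1.5-fold in the R pair was reached by 176 of the higher genes (13.6%, where 5.62% of all genes were) and 41 of the lower genes (5.21%, where 3.69% were). The R pair was 1 library on each side, so these shares have no error from replicates. R replicate 2 lay on the replicate 1 side of the mean of the 4 OF and isotype libraries for 72.3% of the higher genes and 79.0% of the lower genes, and R replicate 1 for 82.7% and 85.8%.

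**Figure D2:**
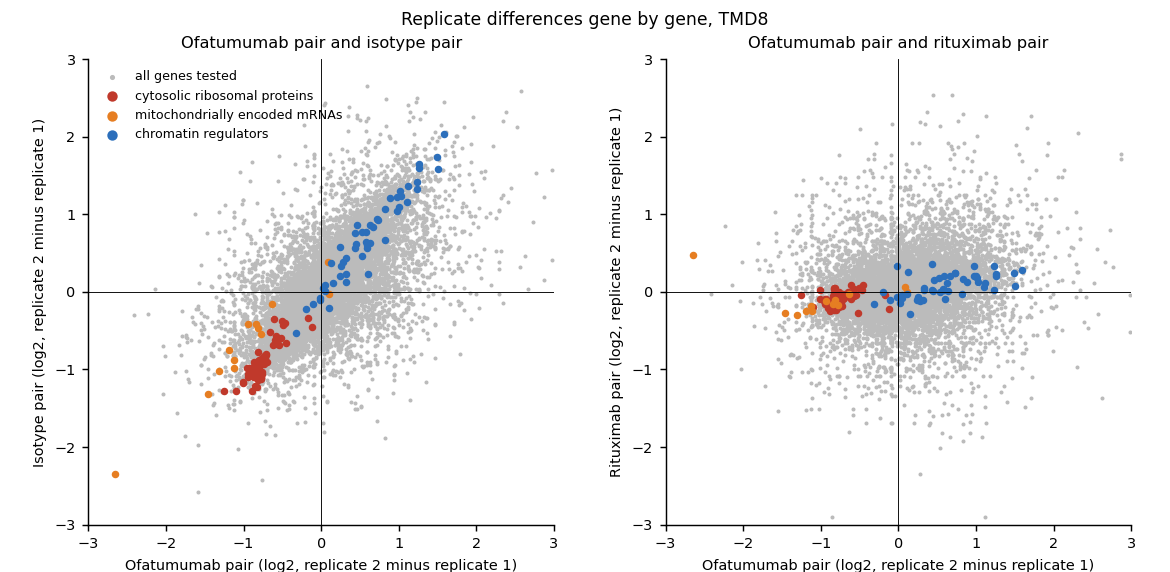
Difference of replicate 2 minus replicate 1 (log2 CPM) of each gene tested in TMD8, in the OF pair (x axis) against the isotype pair (left) and the R pair (right), with 3 gene lists in colour. On the left the ribosomal protein genes lie at the lower left and the chromatin regulators mostly at the upper right, on the right both lie close to the horizontal line at 0. A total of 4 genes fall outside the axes.

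Coding length was the property along which the genes parted most. The median difference ran from -0.43 in the decile of genes with the shortest coding sequence (528 bases or less) to 0.47 in the decile with the longest (3447 bases or more) in the OF pair, and from -0.51 to 0.49 in the isotype pair. In the R pair it ran from -0.07 to 0.03. Of 1163 genes in the longest decile, 389 were higher and 0 lower, and of 1165 in the shortest decile, 10 were higher and 325 lower. GC content gave a shallower slope, with medians of -0.13 and 0.31 at its ends in the OF pair, -0.19 and 0.41 in the isotype pair and -0.14 and 0.13 in the R pair. In the R pair the span between the end deciles was larger over GC content, at 0.27, than over coding length, at 0.10. Among 705 genes in the upper quartile of both, 52.9% were higher and 0 lower, while among 697 in the lower quartile of both, 0 were higher and 17.8% lower. In U2932 the span of the medians over coding length was 0.06, 0.12 and -0.21 in the OF, isotype and R pairs, and that over GC content -0.04, -0.42 and -0.16.

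**Figure D3:**
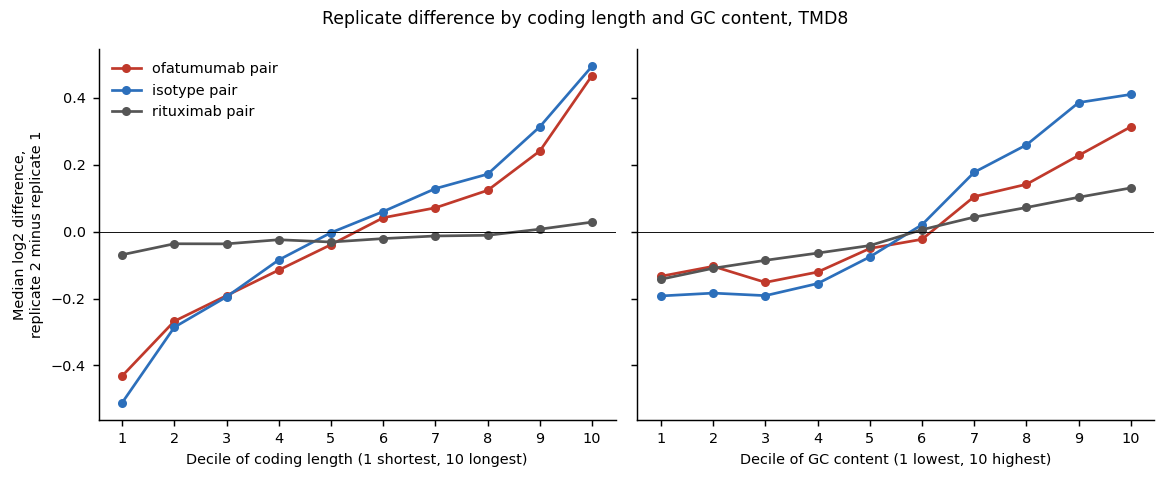
Median difference of replicate 2 minus replicate 1 (log2) in deciles of the genes ordered by coding length (left) and by GC content (right), for the 3 antibody pairs of TMD8. Over coding length the OF and isotype lines climb from -0.43 and -0.51 to 0.47 and 0.49 while the R line stays between -0.07 and 0.03, and over GC content all 3 lines climb.

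Removing the trends of each library on GC content and coding length left a smaller set. The correction, chosen after the values were seen, gave 638 higher genes (4.48% of those tested) and 371 lower genes (2.61%). The OF and isotype pairs still correlated across genes, at r = 0.567, and 66.0% of the higher and 66.3% of the lower genes had the same direction in the R pair. The part of coding length and GC content in the difference between the cultures was not tested.

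Among the genes that were higher, most of the named ones with the largest differences code for large proteins. KMT2D, a histone H3 lysine 4 methyltransferase often mutated in lymphoma, was at 92.0 and 277 CPM in OF replicates 1 and 2, at 78.5 and 323 in the isotype replicates and at 99.1 and 120 in the R replicates. NOTCH1, a receptor that acts as a transcription factor once cut, was at 27.1 and 83.2, 14.8 and 62.3, and 20.8 and 24.6 CPM in the same order. For both genes OF and isotype replicate 2 lay well above the other 4 libraries, which did not differ among themselves by as much. LAMA5, a laminin chain, had the largest difference in its smaller pair, with 14.2 and 50.4 CPM in OF, 8.71 and 31.8 in isotype and 14.04 and 19.69 in R, or 1.82, 1.86 and 0.48 on the log2 scale. PLEC, which codes for the cytoskeletal linker plectin, was higher by 1.59, 1.83 and 0.40, and PKD1, which codes for polycystin 1, by 1.55, 2.16 and 0.33. POLR2A, the largest subunit of RNA polymerase II, was at 94.1 and 265 CPM in OF, 72.4 and 279 in isotype and 91.3 and 111 in R. RYR1, ARHGAP33, HIVEP3, EP400, PTOV1-AS2, HCFC1 and HELZ2 were also among the 15 genes with the largest differences, with smaller differences of 1.42 to 1.69. PTOV1-AS2 is an antisense gene, and without a stated strand setting its reads cannot be told apart from those of its partner.

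With the trends removed these genes stayed above 0 but came closer to it. The corrected difference was 0.64 and 0.64 for LAMA5, 0.68 and 0.99 for NOTCH1, 0.34 and 0.76 for KMT2D and 0.29 and 0.54 for PLEC in the OF and isotype pairs.

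Among the genes that were lower, mitochondrial and signal recognition particle RNAs had the largest differences. MT-ATP8 was at 173 and 27.5 CPM in OF replicates 1 and 2, at 200 and 39.2 in the isotype replicates, and at 118 and 164 in the R replicates. The difference was -2.65 and -2.35 in the first pairs and 0.48 in the R pair, so that its direction turned. This gene overlaps MT-ATP6, and how reads on the overlap were counted affects its level. RN7SL1, an RNA of the signal recognition particle, was at 308 and 102 CPM in OF, 267 and 68.0 in isotype and 70.4 and 144 in R, and RN7SL2 at 361 and 166, 337 and 118, and 83.6 and 174. Both were thus highest in OF and isotype replicate 1 and lowest in isotype replicate 2 or R replicate 1, again with an opposite direction in the R pair. They are near-identical copies whose reads may be split between them. The 2 genes together took 0.063% and 0.028% of the counts in OF, 0.060% and 0.020% in isotype and 0.014% and 0.031% in R.

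MT-ND3 and MT-CO3 were lower in replicate 2 in all 3 pairs. MT-ND3, a complex I subunit, was at 506 and 184 CPM in OF, 381 and 153 in isotype and 405 and 335 in R. MT-CO3, a cytochrome c oxidase subunit, was at 5627 and 2265, 4941 and 2446, and 5867 and 4766 CPM. Of the 13 mitochondrial messages, 6 were lower and 0 higher, where 5.53% of all genes tested were lower. In both the OF and the isotype pair 11 were below 0 and 1 above. The median differences were -0.94, -0.54 and -0.16 in the OF, isotype and R pairs. MT-CO1, the most abundant, did not reach the limit in the isotype pair, with differences of -0.78, -0.54 and -0.17. Both mitochondrial ribosomal RNAs were lower, MT-RNR1 by 1.09, 1.14 and 0.21 and MT-RNR2 by 0.95, 0.89 and 0.22 on the log2 scale.

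Ribosomal protein genes were lower as a group, with 65 of 78 tested past the limit and 0 higher, where 5.53% of all genes tested were lower. All 78 were below 0 in both the OF and the isotype pair, with medians of -0.81 and -0.99. In the R pair 67 of 78 were below 0, where 52.7% of all genes were, with a list median of -0.11. RPL13A, the most abundant, was at 7932 and 4519 CPM in OF replicates 1 and 2, at 7188 and 3330 in the isotype replicates and at 7724 and 7266 in the R replicates. RPLP0, of the ribosomal stalk, was at 4618 and 2612, 4141 and 2029, and 4501 and 4001 CPM, and RPS6, of the small subunit, at 4305 and 2504, 3926 and 2052, and 4125 and 3781. In each of these the 4 libraries other than OF and isotype replicate 2 kept within a narrow band and the 2 replicate 2 libraries lay clear of it. RPS29 and RPL39, among the shortest members, had the largest differences of the named ones, with -1.25 and -1.27 for RPS29 and -1.10 and -1.27 for RPL39. With the trends on GC content and coding length removed, the medians were -0.45, -0.57 and -0.09, and 15 of 78 were lower, where 2.61% of all genes were. In U2932 the medians were 0.04, -0.07 and 0.09, and 0 of 78 passed the limit.

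**Figure D4:**
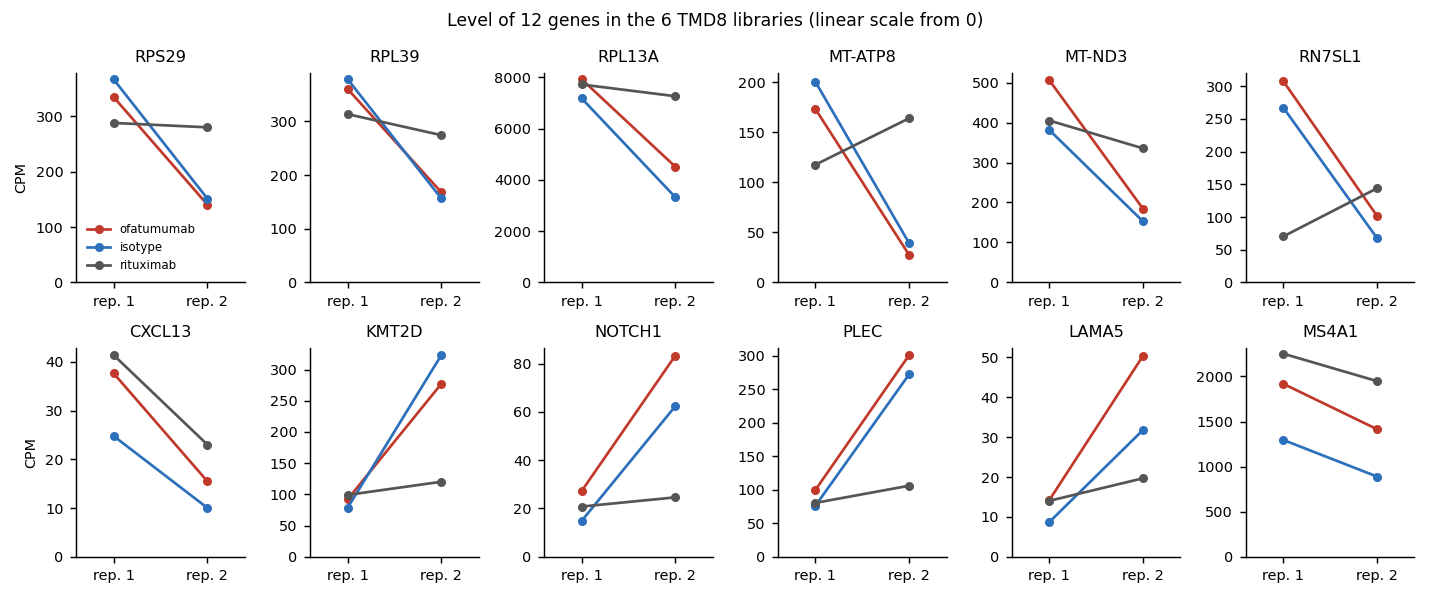
Level (TMM-normalized CPM, linear axes from 0) of 12 genes in the 6 TMD8 libraries, with a line joining replicates 1 and 2 of each antibody. In the OF and isotype lines the ribosomal protein genes, MT-ND3 and CXCL13 are lower and KMT2D, NOTCH1, PLEC and LAMA5 higher in replicate 2, the R line is flatter for all of these except CXCL13, and it runs the opposite way for MT-ATP8 and RN7SL1.

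Other parts of the translation apparatus followed in part. Of 37 translation factors, 8 were lower and 1 higher, with medians of -0.40, -0.39 and -0.10. EEF1A1, which brings aminoacyl-tRNA to the ribosome and whose message is of the 5′ TOP type, differed by -0.67, -0.82 and -0.19, and EEF1B2, part of its exchange factor, by -0.83, -0.995 and -0.14. EIF4G1, the long scaffold of cap-dependent initiation, was the one higher member, at 666 and 1031 CPM in OF, 529 and 943 in isotype and 511 and 543 in R. Of 36 ribosome biogenesis genes, 3 were lower (8.33%, beside 5.53% of all genes) and 2 higher (5.56%, beside 9.12%). The lower ones were NPM1, the nucleolar chaperone nucleophosmin (-0.68, -0.67 and -0.11), SNU13 and NOP16, and the higher ones POLR1A, the largest subunit of RNA polymerase I (0.73, 1.09 and 0.10), and MYBBP1A. In both lists the higher members had longer coding sequences than each of the lower members named.

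Small nucleolar RNA host genes, which have no coding sequence, were lower too. These genes carry snoRNAs in their introns, and many of their spliced products begin with a 5′ TOP run and are degraded when translated. Of 17, 8 were lower and 0 higher, where 5.53% of all genes tested were lower. The medians were -0.60, -0.58 and -0.16, and 16 of 17 were below 0 in the R pair, where 52.7% of all genes were. SNHG29 was at 440 and 264 CPM in OF, 465 and 264 in isotype and 441 and 406 in R, and GAS5 at 241 and 158, 232 and 138, and 251 and 217. SNHG19 had the largest difference, -1.17 and -1.15, with -0.01 in the R pair. They were corrected for GC content only, which gave medians of -0.62, -0.74 and -0.17 and 9 lower genes, where 2.61% of all genes were lower.

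Nuclear genes of the mitochondrion and the proteasome were lower as well, where 5.53% of all genes tested were. Of 77 respiratory chain subunits, 40 were lower and 1 higher, with medians of -0.60, -0.78 and -0.07, and of 76 mitochondrial ribosomal proteins 22 were lower and 0 higher (-0.47, -0.59 and -0.06). CYCS, which codes for cytochrome c, was at 498 and 323 CPM in OF, 440 and 275 in isotype and 525 and 494 in R. Of 34 proteasome subunits, 12 were lower and 0 higher (-0.55, -0.60 and -0.06), among them PSMB4, PSMA4 and PSMC2. With the trends removed, 3 of the 77 respiratory chain subunits, 3 of the 76 mitochondrial ribosomal proteins and 1 of the 34 proteasome subunits were lower. Of all genes tested, 2.61% then were. The corrected medians in the OF and isotype pairs stayed negative, at -0.19 and -0.28 for the respiratory chain subunits. They were -0.24 and -0.29 for the mitochondrial ribosomal proteins and -0.37 and -0.41 for the proteasome subunits. CYCS was at -0.01 and 0.10 in the OF and isotype pairs.

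Chromatin regulators were the list with the most higher members, 23 of 51, with 0 lower, where 9.12% of all genes tested were higher. The medians were 0.58, 0.65 and 0.05, and 45 of 51 were above 0 in both the OF and the isotype pair. EP300, a histone acetyltransferase, was at 102 and 239 CPM in OF replicates 1 and 2, 130 and 348 in the isotype replicates and 116 and 118 in the R replicates. BPTF, a subunit of the NURF remodeller, was at 183 and 326, 272 and 433, and 194 and 216 CPM, and SMARCA4, the ATPase of the BAF complex, at 170 and 283, 130 and 246, and 118 and 141. The median coding length of the list was 5484 bases, against 1386 for all genes tested. With the trends removed the medians were 0.06, 0.12 and -0.01 and 1 gene was higher, where 4.48% of all genes were.

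Some long members of other lists were higher. The coiled-coil genes of centrosome, cilium and Golgi had a median coding length of 4014 bases. Of 47, 3 were higher (6.38%, beside 9.12% of all genes), with medians of 0.10 and -0.04 in the OF and isotype pairs. SRRM2, a large spliceosome-associated protein, was at 528 and 1282 CPM in OF, 377 and 1148 in isotype and 558 and 657 in R, and PRPF8, the core of the spliceosome, differed by 0.94, 1.12 and 0.12. POLE, the leading strand polymerase, differed by 0.98, 1.08 and 0.17. MKI67, the proliferation antigen Ki-67, was at 550 and 1025, 489 and 906, and 756 and 793 CPM. It was the only one of 55 G2 and mitosis genes past the limit upward (1.82%, beside 9.12% of all genes). In that list 5 were lower (9.09%, beside 5.53% of all genes), among them CCNB1, which codes for cyclin B1 (-0.74, -0.80 and -0.38), MAD2L1, UBE2C and PTTG1. The list had medians of -0.23, -0.36 and -0.11.

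**Figure D5:**
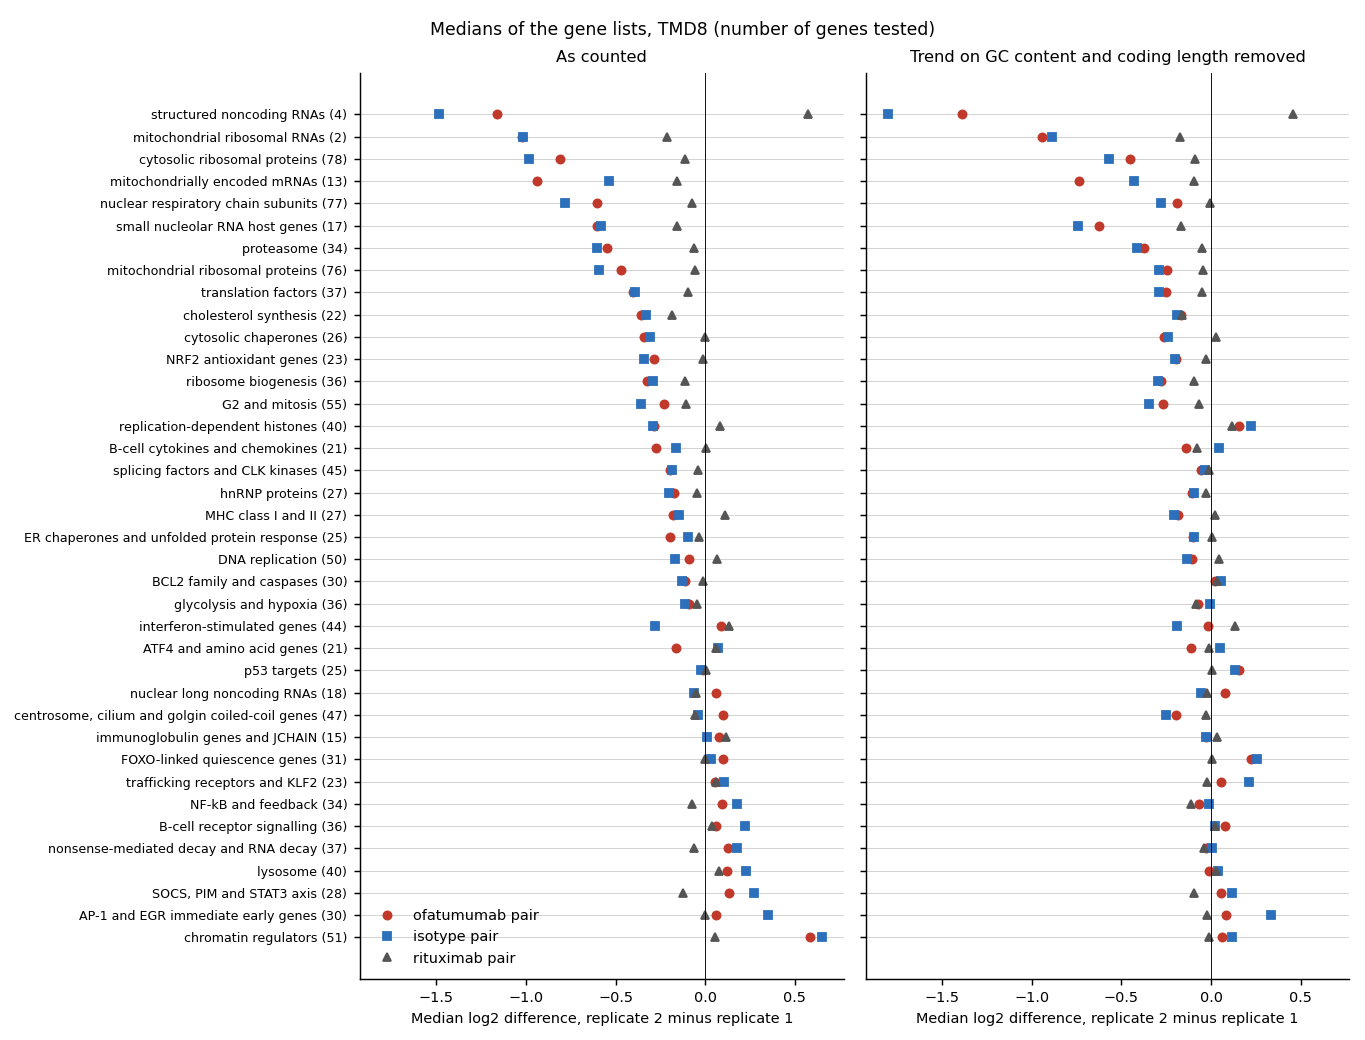
Median difference of replicate 2 minus replicate 1 (log2) of 38 gene lists in the OF, isotype and R pairs of TMD8, as counted (left) and with the trends on GC content and coding length removed (right), with the number of genes tested beside each name. Rows run from the lowest mean of the OF and isotype medians at the top, where the structured noncoding RNAs, mitochondrial and ribosomal protein lists stand, to the chromatin regulators at the bottom, which lie at 0.58 and 0.65 on the left and at 0.06 and 0.12 on the right.

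In the lists of B-cell receptor signalling, NF-kB, interferon-stimulated, immediate early and MHC genes, the share of higher genes was under the 9.12% of all genes tested. Among these lists it was largest in B-cell receptor signalling, at 8.33%. It was 10.7% in the SOCS, PIM and STAT3 axis and 8.70% in trafficking receptors. Lower genes, 5.53% of all genes tested, were 11.1% of the MHC list, 6.82% of the interferon list and 5.88% of the NF-kB list. Of 36 genes of B-cell receptor signalling, 3 were higher, among them VAV2 and INPP5D, and 0 lower, with medians of 0.06, 0.22 and 0.04. The NF-kB list had 1 higher and 2 lower of 34, the lower ones being BCL2A1, an anti-apoptotic target of NF-kB, at -0.85, -1.09 and -0.17, and BIRC3 at -0.66, -0.65 and -0.47. Interferon-stimulated genes had 2 higher and 3 lower of 44, with medians of 0.08, -0.28 and 0.13, and immediate early genes 2 higher and 0 lower of 30, with medians of 0.06, 0.35 and -0.0024. Genes of MHC class I and II had 1 higher and 3 lower of 27, with B2M among the lower (-0.64, -0.81 and -0.20). Of 25 p53 targets, 0 passed the limit in either direction.

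PAX5, the transcription factor that keeps B-cell identity, was the single B-cell marker past the limit. It was at 361 and 599 CPM in OF, 373 and 694 in isotype and 365 and 373 in R, and its difference stayed at 0.71 and 0.81 with the trends removed. FOXO1, a forkhead factor of B-cell development, was at 21.3 and 36.0, 18.1 and 30.6, and 27.3 and 25.7 CPM, with corrected differences of 0.74 and 0.73. Neither differed in the same way in the R pair, where PAX5 was at 0.03 and FOXO1 at -0.08.

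A smaller set of genes differed between the replicates in all 3 antibody pairs. Of the 14227 genes tested, 176 upward and 41 downward reached 1.5-fold in the same direction in each pair. They were 13.6% of the genes higher and 5.21% of those lower in the OF and isotype pairs. Of all genes tested, 5.62% and 3.69% reached that limit in the R pair. Among the genes past the limit in all 3 pairs with at least 10 CPM, only 3 were lower. CXCL13, the chemokine that draws CXCR5-positive lymphocytes to follicles, was at 37.6 and 15.5 CPM in OF, 24.8 and 10.0 in isotype and 41.4 and 23.0 in R, with differences of -1.28, -1.30 and -0.84. IL10, an autocrine growth factor of this lymphoma type, was at 73.5 and 46.3, 53.7 and 32.1, and 68.4 and 44.5 CPM. RDH14, a retinol dehydrogenase, differed by -0.66, -0.75 and -0.66. For CXCL13, RDH14 and IL10 all 3 replicate 2 libraries lay below all 3 of replicate 1. These genes were picked for a 1.5-fold difference in each pair, so this is in part fixed by the choice. With the trends removed CXCL13 stood at -0.68, -0.53 and -0.66 and IL10 at -0.24, -0.23 and -0.53.

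Of the higher genes, BCR, a kinase and GTPase regulator, was at 11.8 and 21.2 CPM in OF, 8.11 and 17.2 in isotype and 6.55 and 12.8 in R. AHRR, the repressor of the aryl hydrocarbon receptor, differed by 1.05, 1.20 and 0.82, and NECTIN1, an adhesion molecule, by 1.03, 1.16 and 0.80. ARHGAP33, AHDC1, SLC9A3-AS1, SEMA4A and TAGLN completed the 8 named upward, with smallest differences of 0.63 to 0.74. SLC9A3-AS1 is by its name an antisense gene, with the limit given for PTOV1-AS2. None of BCR, NECTIN1, AHDC1, SEMA4A, RDH14 and IL10 differed by 1.5-fold in any of the 3 pairs of U2932. There ARHGAP33 differed in the opposite direction, by -0.74 in the isotype pair and -0.77 in the R pair, and TAGLN by -0.61 in the isotype pair.

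Gene types parted as well, where 9.12% of all genes tested were higher and 5.53% lower. Sense intronic transcripts, which lie within introns of other genes, were higher in 39 of 166 cases and lower in 1, with medians of 0.51, 0.27 and -0.02, and their share of the counts was 0.033% and 0.050% in the OF replicates, 0.032% and 0.044% in the isotype replicates and 0.034% and 0.036% in the R replicates. Unprocessed pseudogenes were higher in 18 of 69 cases. Processed pseudogenes, which are copies of spliced messages and can take reads of the parent gene, were lower in 67 of 332 cases, among the named ones RPS27P3 (-1.13, -1.45 and -0.11) and RPSAP58 (-1.08, -1.07 and 0.25), whose reads are uncertain for that reason. HNRNPA1L3, a copy related to HNRNPA1, IGLC7, an immunoglobulin light chain constant gene, and GMFG, a regulator of actin branching, were the remaining genes among the 15 with the largest negative differences, at -1.01 to -1.24. Protein-coding genes were higher in 8.60% and lower in 5.24%.

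Antibody contrasts within a replicate number gave different counts in replicates 1 and 2. Between R and OF, 1491 of the 14227 genes differed by at least 1.5-fold in replicate 1 and 3218 in replicate 2. Between R and isotype the counts were 3128 and 3986, and between OF and isotype 3194 and 2575. The span of the medians over coding length for R minus OF was 0.19 in replicate 1 and -0.62 in replicate 2, and that for R minus isotype 0.32 and -0.57, where OF minus isotype gave 0.14 and 0.01. Each of these contrasts set 1 library against 1 library and has no replicate check, and the part of the replicate 2 composition in them was not tested.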

How the data were processed

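A total of 12 RNA libraries were sequenced. Per the labels and the methods of the study, the authors made libraries with a NEBNext Ultra II kit, trimmed the reads with Trim Galore 0.6.0, aligned them to GRCh38 with STAR 2.7.0e and deposited raw counts of reads per gene, without normalization or filter. The tools' versions come from the submitters' processing notes. The annotation release and the strand setting are not given in the sources used here. Total counts per library are the depth, and precision beyond counting error rests on 2 pairs.

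The members and gene lists were chosen with earlier results of these data known. In R 4.3.3, the 6 libraries of each cell line were normalized by TMM and filtered by filterByExpr (at least 10 counts) in edgeR 4.0.16. A prior count of 2 was used for log2 CPM. Differences were replicate 2 minus replicate 1 within an antibody, and a gene was counted at 1.5-fold in the OF and isotype pairs. No test was run, since the libraries were chosen on these values, and 2 libraries against 2 allow no two-sided permutation p-value below 0.333. Names, positions, GC content (longest coding transcript) and coding length (longest principal coding sequence) come from GENCODE 29 and were found for 58876 (symbol), 14207 (GC content, of 14227 genes tested) and 11625 (coding length) genes. Corrections removed lowess trends (span 0.3). The correction for GC content and coding length together ran for 3 rounds, and those for a single property were not repeated. Genes without coding length were corrected for GC content only. Of 1421 listed symbols, 1419 matched. The steps were tested on simulated data.

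Named genes were the 15 a direction with the largest smaller difference of the OF and isotype pairs at a mean of at least 10 CPM, the 3 most abundant and the 5 most abundant counted members of each list, 8 a direction that differed by 1.5-fold in all 3 pairs at that level (of the lower genes 3 met this), the cell type markers and MS4A1. Some genes and sequences that met the rule are not reported here. Alternatives were DESeq2 1.42.0 size factors, library size, upper quartile and TMM without ribosomal protein and mitochondrial genes, other filters, prior counts and folds, the corrections, no pairing by antibody, all 3 pairs, and each library left out.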

Additional observations from a re-analysis of the deposited data

Results flagged for a closer look

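A set of 5 properties differed in direction between the cell lines in every pair, with replicate 2 minus replicate 1 on 1 side of 0 in all 3 antibody pairs of TMD8 and on the other side in all 3 of U2932. This difference was not tested, and the TMD8 side was chosen on its values. The median of translation factors averaged -0.30 over the 3 TMD8 pairs, that of ribosome biogenesis genes -0.24, that of G2 and mitosis genes -0.23 and that of small nucleolar RNA host genes -0.45. The GC span, the median difference in the decile of genes highest in GC content minus that in the lowest, averaged 0.441. In U2932 the medians of these 4 lists lay between 0.0032 and 0.14, and the GC span between -0.42 and -0.04. The 4 lists are among 43 that were described. In the U2932 isotype pair the medians of ribosome biogenesis (0.0032) and small nucleolar RNA host genes (0.0035) lay below the 0.0177 of all genes tested. Relative to all genes, these 2 lists thus did not lie on the other side in that pair.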

How the results depend on the processing

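No paired analysis was possible because the replicate number, which would be the block, is itself the comparison, and no result comes from a test. Libraries were paired by antibody instead. Under the other scalings, filters and prior counts not named here, counts of genes stayed within 1.5 times of those reported. Scaling by library size alone moved the median of all genes by 0.17 in the OF pair and 0.16 in the isotype pair, with 2097 genes higher and 324 lower and 78.1% in the same direction in the R pair, and the medians of 9 of 43 lists took the other sign under that or another scaling. Without a filter 2021 genes were higher and 1330 lower (462 and 540 in U2932), with 65.6% in the same direction in the R pair and spans of 0.33 over GC content and 0.78 over coding length. With at least 10 counts in every library, 13 and 23 genes were counted in U2932 and 79.4% of the TMD8 genes had the direction of the R pair. At a mean of at least 10 CPM, 619 genes were higher, 86.4% had that direction, and U2932 had 0 and 0. At 2-fold the counts were 325 and 54 (8 and 10 in U2932), without pairing by antibody 729 and 410 (33 and 43 in U2932, 77.9% in the direction of the R pair) and in all 3 pairs 176 and 41 (11 and 20 in U2932).

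Correction for coding length gave 384 lower genes, 72.0% in the direction of the R pair and a length span of 0.022, and correction for GC content 72.3% and a GC span of 0.019. Both together gave 638 and 371 genes, 66.1%, a GC span of 0.029 and a length span of -0.0011, near 0 by construction. Correction for transcript length gave a GC span of 0.70 and a length span of 0.56. Over all 3 pairs the length span was 0.67, the ribosomal protein share fell by 2.996 percentage points and the mitochondrial share fell by 1.602. Of the counts on nuclear protein-coding genes, the ribosomal protein share fell by 4.90 points, and without the mitochondrial ribosomal RNAs the mitochondrial share fell by 1.31.

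Leaving out a library leaves 1 antibody pair. The number of higher genes then lay between 2075 and 2427 and of lower genes between 1331 and 1657, in U2932 between 487 and 512 and between 594 and 604. The share in the direction of the R pair lay between 68.6% and 71.8%, the GC span between 0.45 and 0.60, the length span between 0.90 and 1.01, and the shares differed by -4.73 to -3.95 and -2.45 to -1.82 percentage points. Of the named genes past the 1.5-fold limit, 4 changed sign under a correction. They were CYCS (0.043 with both), SNRNP200 (-0.0076 with both), CHD8 (-0.028 for coding length and -0.023 with both) and SMG1 (-0.042 for coding length). Named genes short of that limit were not counted here, and some of them changed sign too. H2AC6 went from -0.40 and -0.57 in the OF and isotype pairs to 0.16 and 0.13 with both corrections, and STAT6 from 0.20 and 0.28 to -0.12 and -0.20. The cause was not tested. With 2 pairs, the spread between cultures is poorly known at any depth.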

Other observations

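In both the OF and the isotype pair of TMD8, 9.12% of all genes tested were higher past 1.5-fold and 5.53% lower. Gene lists of other functions lay on both sides of these shares. Lower genes were 20.0% of the immunoglobulin list, 17.4% of the NRF2 list and 2.5% of the lysosomal list. Higher genes were 14.3% of the ATF4 list and 6.0% of the DNA replication list. Of 23 NRF2 antioxidant genes, 4 were lower and 0 higher, among them PRDX1 at 769 and 499 CPM in OF, 605 and 391 in isotype and 809 and 760.5 in R. Of 40 replication-dependent histone genes, 5 were lower and 0 higher, and their medians of -0.29 and -0.29 became 0.16 and 0.22 with the trends on GC content and coding length removed. H1-2, a linker histone, was at 585.5 and 349, 680 and 372, and 531 and 524 CPM. Of 22 cholesterol synthesis genes, 1 was lower and 1 higher, the lower one being FDFT1, which codes for squalene synthase (-0.65, -0.78 and -0.20 in the OF, isotype and R pairs), and the higher one SREBF1, a transcription factor of the pathway (0.91, 0.71 and -0.14).

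Of 27 hnRNP genes, 3 were lower (HNRNPA1, HNRNPC and HNRNPH3) and 0 higher, and of 45 splicing factors 4 were higher and 0 lower. Cytosolic chaperones had 1 lower gene of 26, HSPE1, and chaperones of the endoplasmic reticulum 1 higher and 1 lower of 25. DNA replication had 3 higher and 1 lower of 50, glycolysis 1 and 1 of 36, with GAPDH the lower one (-0.65, -0.61 and -0.08), and lysosomal genes 2 and 1 of 40. Genes of the ATF4 response had 3 higher and 0 lower of 21, FOXO-linked genes 3 and 0 of 31, and genes of the SOCS, PIM and STAT3 axis 3 and 1 of 28. Trafficking receptors had 2 higher and 1 lower of 23, nuclear long noncoding RNAs 1 and 1 of 18, cytokines and chemokines 0 and 3 of 21, and the BCL2 family and caspases 1 and 2 of 30. Genes of nonsense-mediated decay had 5 higher and 1 lower of 37, coiled-coil genes of centrosome and Golgi 3 and 1 of 47, and immunoglobulin genes 0 and 3 of 15.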
